A study of Mus musculus with 9 samples.

Results

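Cholesterol is the substrate of every steroid, and 7 genes that bring it to the mitochondria of a Leydig cell were followed here: Scarb1, Lipe, Soat1, Tspo, Dbi, Acsl4 and Npc1. The members were chosen by name for their place in cholesterol uptake, ester turnover and mitochondrial supply, with earlier results of these data known. Each was read from the array probe that carried its symbol alone. A probe was found for 6 of the 7, out of 19938 genes with such a probe, and each of the 6 had 1 probe. Soat1, which esterifies cholesterol, was not analysed here.

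A Leydig cell can take cholesterol from high-density lipoprotein through the receptor SR-BI (Scarb1), from endocytosed lipoprotein through the lysosomal exporter NPC1, or from stored esters. Hormone-sensitive lipase (Lipe) splits those esters and is itself switched on by cAMP-dependent protein kinase. Transfer into the mitochondrion is led by Star, and the outer membrane protein TSPO with its acyl-CoA-binding ligand DBI has long been studied beside it. Acsl4 couples arachidonic acid to coenzyme A in the hormone-regulated arachidonate pathway that acts on Star.

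The cells were MA-10, a clonal mouse Leydig tumour line, kept for 1.5 h in serum-free medium, so no lipoprotein was supplied with serum during the treatment. Control cells received DMSO (3 arrays, whose titles call them untreated), the forskolin group 10 µM forskolin (3 arrays), and the combined group 10 µM forskolin with 1 mM AICAR (3 arrays). Forskolin switches on adenylyl cyclase and so raises cAMP, and AICAR is converted inside cells to an AMP mimic that activates the energy-sensing kinase AMPK. Cells given AICAR alone were not analysed here, so the effect of AICAR was read only in the presence of forskolin.

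All values are log2 expression summaries from Affymetrix whole-transcript arrays, on which a difference of 1 is a doubling. Array medians lay between 7.14 and 7.19, and the interquartile range within an array was 3.35 and 3.34 for AICAR replicates 2 and 3 against 3.42 to 3.48 for the other 7. Genes with an adjusted p under 0.05 in limma are the ones called changed. The labels do not say whether replicates came from separate cultures, so the spread behind each p-value may be technical, and the number of arrays limits the precision. In such extracts, fewer cells with a transcript and less of it per cell cannot be told apart. Of the Leydig cell markers, 6 were measured, with mean log2 values between 8.66 (Hsd3b1) and 11.95 (Hsd3b6). The mean over 6 macrophage markers ranged from 5.92 to 5.95 in control arrays, 5.98 to 6.002 with forskolin and 5.88 to 6.01 with AICAR added. One of them, Cd68, was lower with AICAR than with forskolin alone (log2 difference −0.39, adjusted p = 0.0068). The other 5 were not called in that comparison, with Adgre1 (0.10), Csf1r (0.12) and Mrc1 (0.10) above 0 and Ptprc (−0.05) and Cd14 (−0.05) below. Against control, Cd68 was again lower with both agents (−0.28, adjusted p = 0.026 in limma). None of the other 5 was called there, the nearest being Mrc1 on the higher side (0.17, adjusted p = 0.052). Of 17 markers of Sertoli, germ, endothelial, and peritubular or fibroblast cells, limma called none in any comparison. Of these markers, 0, 3 and 6 had an unadjusted p under 0.05 for forskolin, for AICAR and against control. Over all 19938 genes, 1450, 4801 and 6199 had such a p. The endothelial marker Cdh5 had a mean log2 value of 11.96, and the other 16 lay between 4.16 and 8.32. The part of these markers in the results was not tested. The files hold no detection calls, so absence of a marker could not be scored.

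Scarb1 moved furthest among the 6. Its log2 values were 10.94, 10.91 and 10.87 in the control arrays, 11.20, 11.26 and 11.30 with forskolin, and 10.92, 10.83 and 10.96 with forskolin and AICAR. Every forskolin array was above every array of both other groups, and the control and AICAR arrays overlapped. Forskolin raised Scarb1 from 10.91 ± 0.04 to 11.25 ± 0.05 (SD, n = 3), a rise of 27.2% with a 95% interval of 18.5% to 36.6% (log2 difference 0.35, SE 0.05, adjusted p = 0.0076 in limma). AICAR brought it down by 0.35 on the log2 scale from the forskolin level (SE 0.05, adjusted p = 0.0024), to 10.90 ± 0.07 (SD, n = 3). Against control, the level with both agents differed by −0.0023 (95% interval −0.10 to 0.10, adjusted p = 0.98), so any remaining difference was bounded at −6.99% to 7.17%. Across genes, this lipoprotein receptor had the 65th smallest p of the forskolin comparison and the 194th of the AICAR comparison.

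Leaving out any 1 of the 9 arrays kept both Scarb1 calls, with adjusted p of up to 0.048 for forskolin and 0.015 for AICAR. Without replicate 3 of every group the forskolin rise was 0.30 and lost its call (adjusted p = 0.16).

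**Figure D1:**
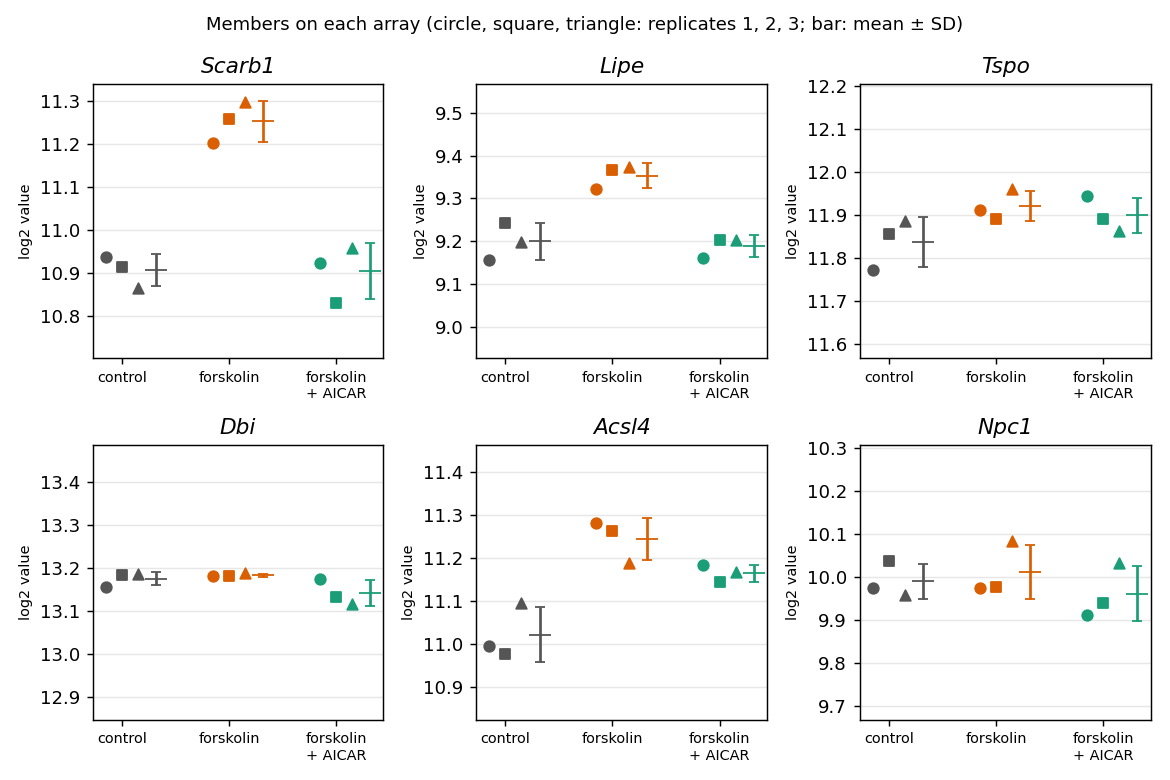
Log2 value of each member on each of the 9 arrays, with the mean and SD of each group beside the points. Every panel spans the same log2 range, so that the step of Scarb1 from about 10.91 to 11.25 and back can be set against Dbi. The points of Dbi lie flat, and those of Npc1 scatter within overlapping groups.

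Lipe, the lipase that frees cholesterol from its stored esters, followed the same order at a smaller size. It read 9.16, 9.24 and 9.20 in control arrays, 9.32, 9.37 and 9.37 with forskolin, and 9.16, 9.20 and 9.20 with AICAR added. Again the forskolin arrays stood above all others and the other groups overlapped. The forskolin difference from control was 0.15 (SE 0.04, 95% interval 0.07 to 0.24) and did not pass the test (adjusted p = 0.18). The drop with AICAR passed it narrowly, from 9.35 ± 0.03 to 9.19 ± 0.02 (SD, n = 3; log2 difference −0.16, SE 0.04, adjusted p = 0.039). That call was lost in 14 of 20 alternatives, among them the removal of any 1 array but AICAR replicate 1 (adjusted p of up to 0.12), a replicate block (0.077) and quantile normalization, which shrank the difference to −0.11 (0.13). The AICAR level differed from control by −0.01 (95% interval −0.10 to 0.07, adjusted p = 0.86).

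RefSeq places 2 start sites at Lipe, and the array summary does not separate their transcripts. Windows for Scarb1, Tspo and Npc1 were not analysed here. The 250 bases before each Lipe start are shown because Lipe was called with AICAR. They are read on the minus strand of GRCm38.p6, the build of the RefSeq table, at chr7:25395988-25396237 and chr7:25390113-25390362. Capitals mark the GC box GGGCGG, an Sp1-type element, on either strand.
Lipe upstream start: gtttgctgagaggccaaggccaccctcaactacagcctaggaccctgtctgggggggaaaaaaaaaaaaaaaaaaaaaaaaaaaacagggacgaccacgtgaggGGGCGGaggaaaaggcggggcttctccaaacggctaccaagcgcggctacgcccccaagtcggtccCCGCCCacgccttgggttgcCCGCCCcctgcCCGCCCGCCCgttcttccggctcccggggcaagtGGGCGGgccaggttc
Lipe downstream start: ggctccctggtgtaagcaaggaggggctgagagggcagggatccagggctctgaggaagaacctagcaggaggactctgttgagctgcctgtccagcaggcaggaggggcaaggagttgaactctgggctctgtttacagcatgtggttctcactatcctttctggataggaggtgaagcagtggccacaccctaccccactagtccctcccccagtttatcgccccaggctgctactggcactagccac

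The upstream window held 6 GC boxes on both strands together, and the downstream window held none. A GC box occurs in 32.7% of the 32817 windows of this length in the table. Neither Lipe window held the cAMP response element TGACGTCA (1.55% of windows), its short core TGACG (17.7%; the full element contains it), the site AAGGTCA bound by the NR5A1 and NR4A receptors (4.08%), the AP-1 site TGACTCA (4.46%), the TATA motif TATAAA (12.4%) or CCAAT (33.8%), each searched on both strands.

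Acsl4, the arachidonate-preferring acyl-CoA synthetase, was the member with the next largest forskolin difference after Scarb1. The arrays gave log2 values of 10.99, 10.98 and 11.09 in control arrays, 11.28, 11.26 and 11.19 with forskolin, and 11.18, 11.14 and 11.17 with AICAR added. All 3 groups were separate, with control lowest, the combined treatment between and forskolin highest. The forskolin difference from control was 0.22 (SE 0.04, 95% interval 0.12 to 0.32), or 16.6% with an interval of 8.93% to 24.9%, and missed the threshold (adjusted p = 0.075). It passed with genes of a mean log2 value under 6 left out (adjusted p = 0.0499), with a trended and robust prior (0.012) and with array weights (0.0036), and in none of the other 17 alternatives.

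With AICAR added, Acsl4 differed from the forskolin level by −0.08 (95% interval −0.18 to 0.02, adjusted p = 0.29), and from control by 0.14 (95% interval 0.04 to 0.24, adjusted p = 0.073). Neither difference passed the test. The Scarb1 value minus the Acsl4 value of the same array ran from −0.08 to 0.11 with forskolin and from −0.31 to −0.21 with AICAR added, so the forskolin and AICAR arrays did not overlap on it. The change of this gap was −0.27, with an exact two-sided permutation p of 0.1, the smallest that 3 arrays against 3 allow, and an adjusted p of 0.15 over the 3 pairs among Scarb1, Lipe and Acsl4. Scarb1 minus Lipe did not overlap either, at 1.63 to 1.76 with AICAR added against 1.88 to 1.93 with forskolin. Its change was −0.19, with the same exact and adjusted p. Lipe minus Acsl4 overlapped (change −0.09, exact permutation p = 0.2). These pairs were chosen after their values were seen, and the design could not have passed the threshold.

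The 250 bases before the Acsl4 start are shown beside those of Lipe because its forskolin arrays also stood clear of control, a choice made after its values were seen. They lie on the minus strand of GRCm38.p6 at chrX:142390536-142390785. Capitals mark the short core TGACG of the cAMP response element and the GC boxes.
Acsl4: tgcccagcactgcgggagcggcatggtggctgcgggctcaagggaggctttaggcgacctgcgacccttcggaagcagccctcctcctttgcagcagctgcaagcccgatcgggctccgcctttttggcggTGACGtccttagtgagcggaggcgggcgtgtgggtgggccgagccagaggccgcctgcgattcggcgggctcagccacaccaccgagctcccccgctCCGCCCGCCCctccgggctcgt

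This window held 1 TGACG, beginning 119 bases before the start, and 2 overlapping GC boxes on the opposite strand. None of the other motifs searched at Lipe was in it. TGACG was also found once in 1 of the 2 Dbi windows, beginning 187 bases before the start, and Dbi differed by 0.01 with forskolin (adjusted p = 0.99). These matches describe the letters of the window and not binding.

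Tspo encodes the outer mitochondrial membrane protein first known as the peripheral benzodiazepine receptor. On the log2 scale Tspo read 11.77, 11.85 and 11.88 in control arrays, 11.91, 11.89 and 11.96 with forskolin, and 11.94, 11.89 and 11.86 with AICAR added. The forskolin arrays were all above the control arrays, and the step did not pass the test (0.08, SE 0.04, against a control SD of 0.06; 95% interval −0.01 to 0.18, adjusted p = 0.77). With AICAR the difference from forskolin was −0.02 (95% interval −0.12 to 0.07, adjusted p = 0.76), and the arrays overlapped.

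Dbi, which encodes the acyl-CoA-binding protein and endozepine that TSPO binds, was the steadiest member, with an SD within groups of 0.02 against a median of 0.07 over all genes. The other members also lay below that median, the highest at 0.06. The log2 values of Dbi were 13.16, 13.18 and 13.19 in control arrays and 13.18, 13.18 and 13.19 with forskolin. With AICAR added they were 13.17, 13.13 and 13.12, all below the forskolin arrays but overlapping control. The differences were 0.01 for forskolin (95% interval −0.07 to 0.08, adjusted p = 0.99) and −0.04 for AICAR (95% interval −0.12 to 0.03, adjusted p = 0.46), neither past the test. In percent, the intervals of Dbi reached from −4.63% to 5.89% for forskolin and from −7.78% to 2.40% for AICAR.

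Npc1 encodes the lysosomal membrane protein that hands endocytosed cholesterol on to other membranes. The log2 values of Npc1 were 9.97, 10.04 and 9.96 in control arrays, 9.97, 9.97 and 10.08 with forskolin, and 9.91, 9.94 and 10.03 with AICAR added. The 3 groups overlapped throughout. The forskolin difference was 0.02 (95% interval −0.09 to 0.13, adjusted p = 0.97) and the AICAR difference −0.05 (95% interval −0.16 to 0.06, adjusted p = 0.53). In percent, these intervals reached from −5.85% to 9.45% and from −10.4% to 4.13%.

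**Figure D2:**
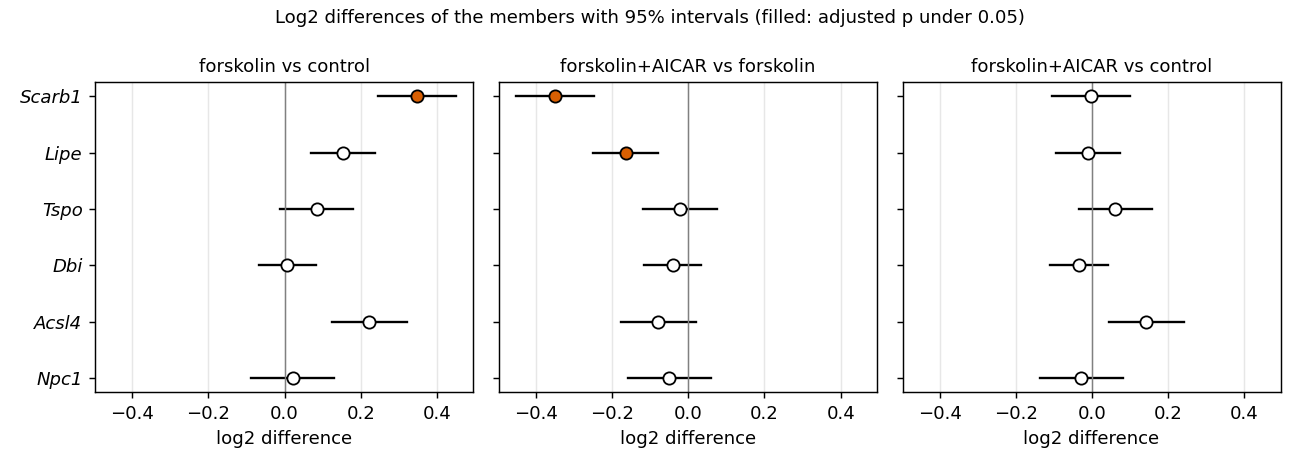
Log2 difference of each member in the 3 comparisons, with its 95% interval from limma; filled points have an adjusted p under 0.05. Scarb1 (0.35) is the filled point for forskolin, Scarb1 (−0.35) and Lipe (−0.16) are those for AICAR added to forskolin, and none is filled against control.

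Counted together, forskolin raised 1 of the 6 members and 5 did not pass, where 0.497% of all genes were called higher and 0.692% were called in either direction. All 6 differences were above 0, as were 52.4% over all genes, with a median of 0.12 against 0.0034 over all genes. Dbi fell on the other side of 0 with quantile normalization, Npc1 with array weights and both with median centring, so that 5, 5 and 4 of the 6 were then above 0. In 4 of them (Scarb1, Lipe, Tspo and Acsl4) the forskolin arrays lay wholly above control, as 6.85% of all genes did. AICAR lowered 2 of the 6 (4.12% of all genes were called lower and 5.1% called in all), and all 6 differences from forskolin were below 0, as were 40.8% over all genes, with a median of −0.06 against 0.02 over all genes. Tspo alone turned positive under another scaling, at 0.0049 with quantile normalization. The AICAR arrays lay wholly below the forskolin arrays in 4 of them (Scarb1, Lipe, Dbi and Acsl4), as in 12.2% of all genes. The members are bright, with group means from 9.19 (Lipe) to 13.18 (Dbi) against array medians of 7.14 to 7.19. With genes of a mean log2 value under 6 left out, the median over all genes for AICAR was 0.0083. The part of the narrower interquartile range of AICAR replicates 2 and 3 in these differences was not tested.

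Against control, limma called none of the 6 with both agents present, while 8.72% of all genes were called. Acsl4 alone of the 6 had an unadjusted p under 0.05 in that comparison, where 6199 of all 19938 genes had one. It alone lay apart from control, on the higher side as 15.2% of all genes did. The forskolin and AICAR comparisons share the forskolin arrays, so a chance high or low reading in those arrays enters both with opposite sign. Scarb1 was 1 of 72 genes, or 0.361% of all, called higher with forskolin and lower once AICAR was added.

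The order of the 3 groups can be given for each member from these tests. For Scarb1, forskolin was above both other groups and those did not differ beyond their spread. For Lipe, forskolin was above the AICAR group, and neither of these was called against control. For Acsl4, Tspo, Dbi and Npc1 no neighbouring groups differed past the test.

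Beyond the members, 5 lists of 98 genes around cholesterol supply were read, of which 89 were measured besides the members. The lists were chosen with earlier results of these data known, so their called shares only describe them. Forskolin changed 3 of the 89, Star and Fdx1 upward and G0s2 downward, or 3.37% beside 0.692% of all genes. AICAR changed 8 (2 higher and 6 lower, or 8.99%) against forskolin, beside 5.1% of all genes. Against control 6 differed (1 higher and 5 lower, or 6.74%), below the 8.72% of all genes called there. For the counts at an unadjusted p under 0.05 given below, the numbers over all 19938 genes were 1450, 4801 and 6199 for forskolin, for AICAR and against control.

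The list of mitochondrial import and side-chain cleavage also took in Hsd3b1 and Hsd3b6, which act after these steps. It held 2 of the 3 forskolin calls and 6 of the 8 AICAR calls. This list thus had 8.7% of its genes called for forskolin, beside 0.692% of all genes. Of its 23 measured genes, Star, the carrier that moves cholesterol to the inner membrane, rose by 1.89 with forskolin (SE 0.06, adjusted p = 2.8e-07) and fell by 2.05 with AICAR (SE 0.06, adjusted p = 5.2e-07). Scarb1 thus moved in the same directions as Star over a much smaller range. Fdx1, the ferredoxin that carries electrons to the side-chain cleavage enzyme, read 9.76, 9.75 and 9.86 in control arrays, 10.72, 10.66 and 10.68 with forskolin and 10.31, 10.31 and 10.42 with AICAR added. Its 3 groups were separate, with the AICAR group between the others, and it stayed called against control (0.56, SE 0.05, adjusted p = 0.00032).

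With AICAR, Hsd3b1 (−0.59), Hsd3b6 (−0.25) and Akap1 (−0.21) also fell and the cholesterol carrier Stard4 (0.19) rose. The list thus had 1 gene higher, 5 lower and 17 not called (26.1% called, beside 5.1% of all genes), and a median difference of −0.06 against 0.02 over all genes. Akap1, an anchor of cAMP-dependent kinase at the outer mitochondrial membrane, was also below control (−0.18, SE 0.04, adjusted p = 0.034). Fdx1 and Akap1, the genes of this list called against control, are 8.7% of it, beside 8.72% of all genes called there. The Hsd3b1 and Hsd3b6 calls each held in 9 of 20 alternatives, that of Stard4 in 10, the Akap1 fall from forskolin in 13 and its difference from control in 9. The 2 Hsd3b genes are closely related in sequence, so their signals may not be fully separate.

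Among 23 genes of cholesterol esters, lipid droplets and lipolysis, G0s2 was the single call in the forskolin and AICAR comparisons, and it went the opposite way to Scarb1 and Lipe. This 1 of 23 is 4.35%, beside 0.692% of all genes called for forskolin and 5.1% for AICAR. G0s2 encodes an inhibitor of adipose triglyceride lipase. The gene read 9.81, 9.79 and 9.74 in control arrays, 9.48, 9.45 and 9.51 with forskolin, and 9.73, 9.78 and 9.71 with AICAR added. All forskolin arrays lay below all others. G0s2 fell by 0.30 with forskolin (SE 0.04, adjusted p = 0.0058) and rose by 0.26 with AICAR (SE 0.04, adjusted p = 0.0041), and against control it was not called (−0.04, adjusted p = 0.49). Both calls held with any 1 array left out, and the forskolin call was lost without replicate 3 of every group (adjusted p = 0.061). In the comparison with control none of these 23 genes was called by limma and 2 had an unadjusted p under 0.05, the nearest to a call being Fitm1, which promotes droplet formation (0.19, adjusted p = 0.12).

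Lipoprotein uptake and lysosomal handling, the list nearest to Scarb1 and Npc1, had no gene called by limma among 15 in any comparison. In this list 1, 3 and 4 had an unadjusted p under 0.05 for forskolin, for AICAR and against control, beside 1450, 4801 and 6199 of all 19938 genes. The smallest p belonged to the lipoprotein receptor gene Lrp8 with forskolin (0.18, adjusted p = 0.51), to Mylip, a ubiquitin ligase for the LDL receptor, with AICAR (0.16, adjusted p = 0.12) and to the late endosomal cholesterol carrier Stard3 against control (−0.13, adjusted p = 0.093). The median differences were 0.01, −0.0041 and 0.02.

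Among 16 other genes of acyl-CoA synthesis, binding and hydrolysis, which surround Acsl4 and Dbi, none was called by limma for forskolin (Acbd7 0.11, adjusted p = 0.43) or for AICAR against forskolin (Acbd6 −0.17, adjusted p = 0.053), with 1 and 3 at an unadjusted p under 0.05. Against control, the acyl-CoA-binding protein gene Acbd6 (−0.22, adjusted p = 0.015) and the fatty acid transporter gene Slc27a4 (−0.16, adjusted p = 0.045) were lower. These 2 of 16 are 12.5%, near the 8.72% of all genes called there. The Acbd6 call held in 16 of 20 alternatives and that of Slc27a4 in 8.

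Of 14 cholesterol efflux genes, limma called none for forskolin, where 2 had an unadjusted p under 0.05 (Gramd1b 0.14, adjusted p = 0.23). AICAR lowered Abca1, the exporter of cholesterol to apolipoprotein A-I, by 0.20 from the forskolin level (SE 0.04, adjusted p = 0.036). Its log2 values were 11.72, 11.62 and 11.62 in control arrays, 11.62, 11.67 and 11.70 with forskolin, and 11.51, 11.43 and 11.46 with AICAR added, the last below all others. Against control Abca1 (−0.19, adjusted p = 0.036) and the transporter gene Abcg4 (−0.21, adjusted p = 0.0085) were lower. The 1 of 14 called with AICAR is 7.14%, beside 5.1% of all genes, and the 2 against control are 14.3%, beside 8.72%. The Abca1 calls each held in 8 of 20 alternatives, and that of Abcg4 in 19.

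**Figure D3:**
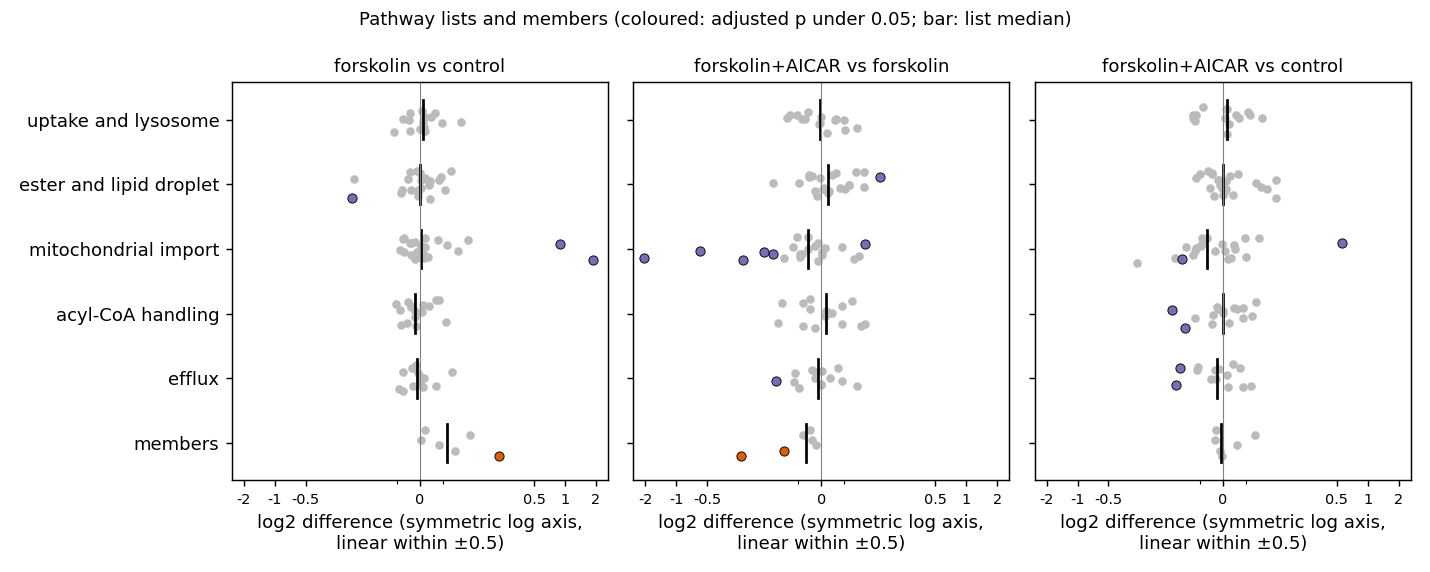
Log2 differences of the measured genes of the 5 lists and of the 6 members in each comparison, on an axis that is linear within ±0.5 and logarithmic beyond; coloured points have an adjusted p under 0.05 and bars mark list medians. The 2 rightmost forskolin points are Star (1.89) and Fdx1 (0.90), and G0s2 is the coloured point of the ester list on the side opposite to Scarb1.

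The genes closest to each called member over the 9 arrays were found by the mean absolute difference between values centred on each gene's own mean. For Scarb1 they were Midn (0.02 per array), Pgpep1 (0.04) and the pro-apoptotic BH3-only gene Bcl2l11 (0.04), where the median over all genes was 0.17. All 3 were called higher with forskolin, at 0.37, 0.38 and 0.43, and lower with AICAR, at −0.39, −0.40 and −0.35, as follows largely from choosing them for their likeness to Scarb1. The forskolin call of Midn was lost without control replicate 2 or control replicate 3 (adjusted p of up to 0.0504) and without replicate 3 of every group (0.12). In that last setting Pgpep1 lost its forskolin call (0.098) and Bcl2l11 both of its calls (0.11 and 0.062). For Lipe they were 1810055G02Rik (0.02 per array), the Egr corepressor gene Nab2 (0.03) and Trp53inp2 (0.03), against a median of 0.10. Of those only Trp53inp2 was called, with AICAR (−0.15), and that call held in 7 of 20 alternatives.

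**Figure D4:**
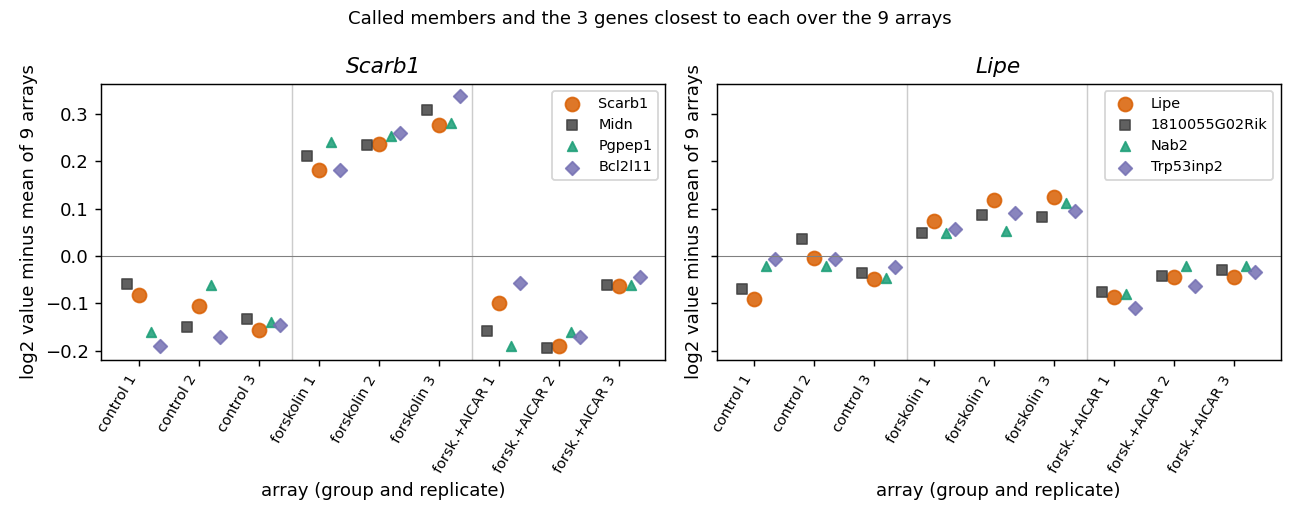
Log2 values of Scarb1 and Lipe and of the 3 genes closest to each, every gene centred on its mean over the 9 arrays, which stand on the horizontal axis by group and replicate. The Scarb1 set lies above 0 on all forskolin arrays and below it on all others, and the Lipe set shows the forskolin arrays above 0 at a smaller size.

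The within-group SD of these members was 0.02 to 0.06. The p-values were adjusted within each comparison, so calls do not rank differences of separate comparisons by size against spread. Acsl4 with forskolin had a smaller unadjusted p in limma (0.00059) than Lipe with AICAR (0.0016), and was called in fewer alternatives. The AICAR drop of Scarb1 stayed between −0.40 and −0.31 and was called in all 20 alternatives. The AICAR drop of Lipe stayed between −0.18 and −0.11 and was called in 6. The forskolin difference of Acsl4 stayed between 0.19 and 0.29 and was called in 3. The differences of Tspo, Dbi and Npc1 were called in none of the 20 for any comparison.

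**Figure D5:**
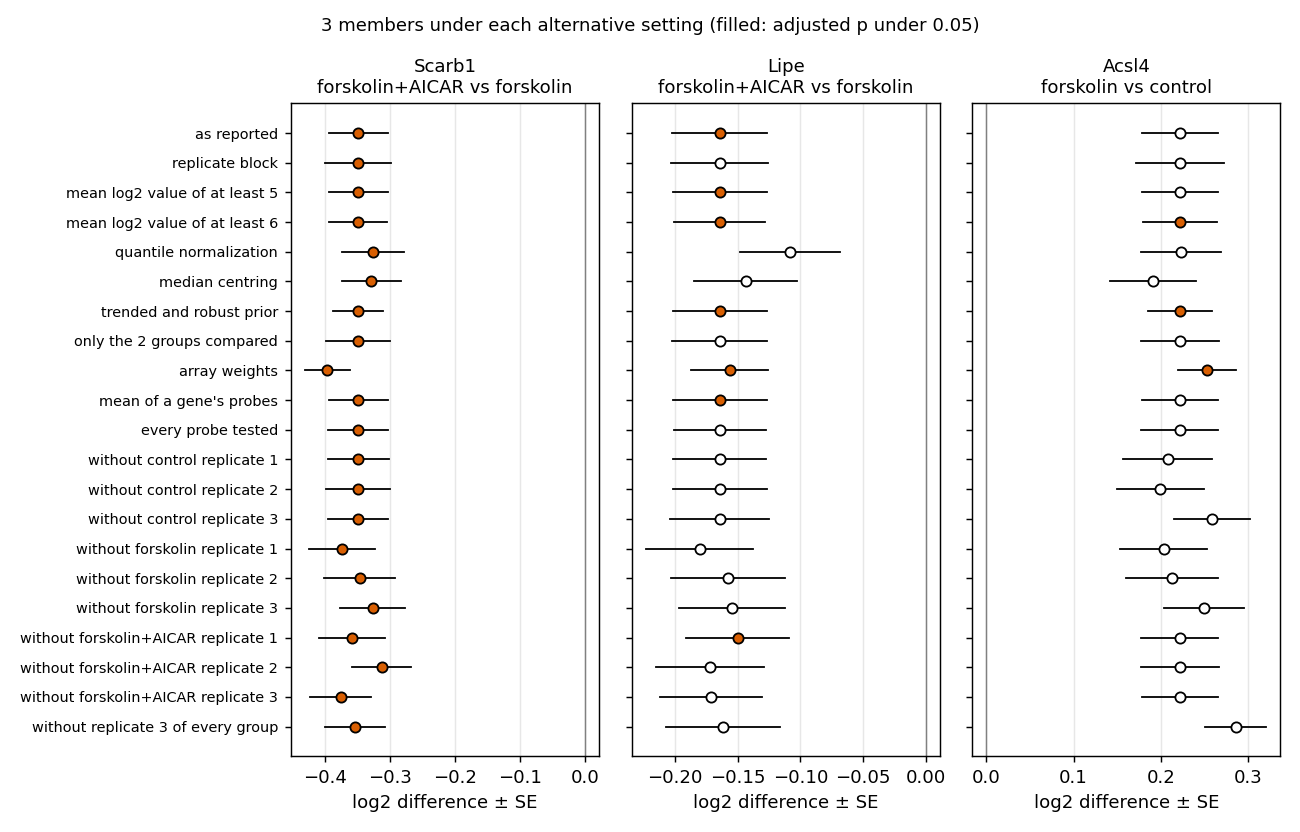
Log2 difference ± SE of Scarb1 and Lipe for AICAR added to forskolin and of Acsl4 for forskolin, as reported and under each of 20 alternatives; filled points have an adjusted p under 0.05 and each panel has its own scale. All Scarb1 points are filled, whereas 6 alternatives for Lipe and 3 for Acsl4 are, and no point crosses 0.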

How the data were processed

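The authors deposited 1 log2 value per array for each transcript cluster, here called a probe. RMA and Partek are named for this step in the submitters' processing notes, with versions and settings not given in the sources used here. Usual RMA corrects background, equalises array distributions and summarises probes, which can compress small differences. Of 35557 probes, 21789 carried 1 gene symbol, 1621 several and 12147 none listed. Probes with 1 symbol were used, the brightest where a gene had more, giving 19938 genes on 9 arrays. All arrays entered 1 limma 3.58.1 model (R 4.3.3) with a mean per group, moderated and two-sided, Benjamini-Hochberg adjusted over all genes of each of 3 comparisons. The model was tested on simulated data with independent noise and changes in the forskolin group only. That test required recovery of calls only for changes of 1 on the log2 scale, larger than the change of any member. It covers neither the AICAR comparisons nor changes as small as those of Lipe and Acsl4. The members and lists were chosen with earlier results of these data known.

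Named genes were all members, Star, up to 4 called genes per list and comparison by size (or the smallest p), and the 3 genes closest to each called member. Called genes beyond these (Akap1 and Stard4 with AICAR) complete counts. Promoter windows came from RefSeq tables of GRCm38.p6. Positions other than those of the printed promoter windows are left out, since the value table names no genome build. Alternatives were a replicate block, filters on dim genes, other scalings, priors, array weights and probe rules, fits of 2 groups and each array left out. Figures used Python 3.11.15 and matplotlib 3.10.9.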

Additional observations from a re-analysis of the deposited data

How the results depend on the processing

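Of the 6 members, 1 was called for forskolin, and 2 with genes under a mean log2 value of 6 left out or a trended and robust prior, 3 with array weights and 0 without replicate 3 of every group (a setting chosen after seeing the data). For AICAR against forskolin 2 were called, and 1 with quantile normalization, median centring, a fit of only 2 groups, every probe tested or without replicate 3 of every group, and 3 with array weights. Against control 0 were called, and 1 with the trended prior or array weights. Leaving out single arrays gave 1 to 1, 1 to 2 and 0 to 0. Of the 89 pathway genes, 3 were called for forskolin, and 5 with array weights. For AICAR 8 were called, and 13 with the trended prior, 26 with array weights, 3 with 2 groups or without replicate 3 of every group, 4 with every probe and 4 to 14 without single arrays (14 without AICAR replicate 1). Against control 6 were called, and 2 with quantile normalization, 2 groups or without replicate 3 of every group, 3 with every probe, 23 with array weights and 2 to 14 without single arrays (14 without AICAR replicate 1).

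With the replicate number as a block, 1 member and 3 pathway genes were called for AICAR and 3 pathway genes against control. The numbers did not pair the arrays: same-numbered deviations correlated at −0.41 to 0.33, with 2 of 9 pairs over 0.1, and 0 of 9 arrays lay closest to their own number.

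Differences near 0 changed sign without being called. For forskolin, Dbi was −0.0051 with quantile normalization, −0.024 with median centring and −0.0022 to 0.013 without single arrays, and Npc1 −0.0090 with median centring, −0.015 with array weights, −0.031 without replicate 3 of every group and −0.015 to 0.045 without single arrays. For AICAR, Tspo was 0.00485 with quantile normalization and 0.015 without replicate 3 of every group. Against control, quantile normalization gave 0.031 for Scarb1, 0.053 for Lipe and 0.0086 for Npc1, and leaving out single arrays gave −0.029 to 0.034 for Scarb1 and −0.032 to 0.011 for Lipe.

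Over all genes, the calls numbered 138, 1017 and 1739 in the 3 comparisons, and between 43 and 436, 241 and 5729, and 377 and 6619 under the alternatives, the highest with array weights. For forskolin 71.7% of called genes were higher, against 58.5% with median centring and 48.6% with array weights, where most were lower, and 80.7% with a replicate block, 81.8% with every probe and 68.8% to 84.1% without single arrays. For AICAR 19.2% were higher, against 41.6% with quantile normalization, 35.4% with median centring, 53.7% with array weights and 11.3% to 50.5% without single arrays. Against control 34.8% were higher, against 54.1% with array weights, 22.3% with a replicate block, 19.7% with 2 groups and 18.6% to 56.4% without single arrays. The highest shares without single arrays for AICAR and against control, 50.5% and 56.4%, came without AICAR replicate 1, where 3324 and 4741 genes were called. Without replicate 3 of every group the shares were 83.7%, 8.3% and 15.4%. The cause of these differences was not tested.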
